A study of Mus musculus with 2 samples.

Results

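Adipogenic regulators and lipid uptake genes were examined in MEFs, mouse embryonic fibroblasts, which are mesenchymal cells cultured from embryos. The 10 genes were chosen by name, with values from these arrays already known: the transcription factors Pparg, Cebpa, Cebpb, Cebpd and Zfp423, the lipid uptake and binding genes Lpl, Cd36 and Fabp4, and the mature adipocyte products Adipoq and Plin1. On each array, 9 of them were found by the gene name in the array file, with 16 probes. Plin1 was present under its older symbol Plin with 1 further probe, which was matched by its accession and lies outside the count by name. The 17 probes stood among 41174, and the 10 genes among 27579 with a usable probe. Because the choice rested on the same arrays, the ratios of the members are a description and carry no test.

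RNA of LATS2-/- MEFs (KO) and RNA of LATS2+/+ MEFs (WT), both from C57BL/6J mice, competed for the same 60-base probes on Agilent arrays that cover the mouse transcriptome. Both groups of cells were untreated, and the study's methods give growth in DMEM with serum and antibiotics, with no adipogenic cocktail named. The study describes WT littermates and several MEF lines, and whether those are the cells of these arrays is not settled by the labels. The embryonic age, the number of embryos and the passage are not given in the sources used here. There were 2 arrays. In one hybridisation, the first array below, KO RNA was red (Cy5) and WT RNA green (Cy3), and in the other, the second array, the colours were swapped. They were taken as a technical dye swap of 1 pair of RNAs, so each genotype had 1 replicate and no difference below has a check against the spread between animals or cultures.

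Log2 ratios of the arrays correlated across 40875 probes with Pearson's r of 0.899. This r runs over probes, not over replicates. A probe's 2 ratios had a pooled SD of 0.133 (log2 scale). Lats2 itself went against the genotype label on 3 of its 4 probes, where the RNA labelled KO was above WT by log2 ratios of 0.56, 0.56 and 0.63, and was lower on the fourth, at -0.35. Whether these probes lie in the deleted part of the gene was not analysed here. A direction below therefore rests on the labels, and the 2 RNAs are named by label, "the RNA labelled KO" and its WT counterpart. A gene was called higher or lower when its brightest usable probe differed at least 2-fold, in one direction on both arrays, and was well above background, by the scanner software's flag, on both arrays in the RNA in which it was higher.

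Adipogenesis is the conversion of mesenchymal precursors into fat cells. In the textbook order, C/EBP beta and C/EBP delta come first after the hormonal stimulus, and then PPAR gamma and C/EBP alpha sustain each other's expression and switch on the genes of lipid uptake, storage and secretion. Zfp423, a zinc finger protein, marks committed preadipocytes. Fibroblasts from embryos hold precursors that can be driven along this path, and Dlk1, Wnt ligands and Gata factors are known to hold them back.

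Of the 10 members, Pparg and Lpl were called higher in the RNA labelled KO, and no member was called lower. Over all 27579 genes, 1.7% were called higher and 1.5% lower. Among the 15877 genes well above background on both arrays in at least 1 RNA these shares were 2.95% and 2.61%. Only 6 of the 10 members reached that level: Pparg, Cebpa, Cebpb, Cebpd, Lpl and Fabp4. The median log2 ratio was 0.05 over the 10 members, against 0.00 over all genes. The calls on Pparg and Lpl are among the values with which the members were chosen, and nothing is read from their share.

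Start site windows of 3 genes are shown as examples of different outcomes: Pparg and the lipid droplet coat gene Plin4 (described with the lipid genes) were several-fold higher in the RNA labelled KO, whereas Adipoq, the adipocyte hormone, was at background in both RNAs. RefSeq sequences on GRCm38.p6 were available for 7 of the 10 members, each running from 250 bases before to 50 bases after a start site. Capitals mark matches to the C/EBP motif TTNCNNAA on either strand. The windows were also searched on both strands for CATTCC, the core bound by TEAD factors, through which YAP and TAZ act downstream of Lats2, and for the PPAR-RXR motif, a direct repeat of AGGTCA with 1 base of any kind between the copies. Neither CATTCC nor the repeat had a match in any window of a member, of Plin4 or of Dlk1, so no match overlapped a C/EBP match. Pparg had 3 windows, of which the first and the last are printed, in the direction of transcription.
Pparg, chr6:115360894-115361193, plus strand: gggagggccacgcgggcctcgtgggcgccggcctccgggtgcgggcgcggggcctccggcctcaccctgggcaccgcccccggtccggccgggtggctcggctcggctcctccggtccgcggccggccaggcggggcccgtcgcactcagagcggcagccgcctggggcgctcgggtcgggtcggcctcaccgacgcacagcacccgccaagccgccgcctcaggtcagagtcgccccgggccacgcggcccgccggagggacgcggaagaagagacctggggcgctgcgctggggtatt
Pparg, chr6:115421816-115422115, plus strand: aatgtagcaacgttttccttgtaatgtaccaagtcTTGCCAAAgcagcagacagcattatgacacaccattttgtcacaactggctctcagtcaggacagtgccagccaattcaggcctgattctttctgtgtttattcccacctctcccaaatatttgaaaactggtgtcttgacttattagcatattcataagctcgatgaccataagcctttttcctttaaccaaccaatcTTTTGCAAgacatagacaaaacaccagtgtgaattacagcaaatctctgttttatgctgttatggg
Plin4, chr17:56109733-56110032, minus strand: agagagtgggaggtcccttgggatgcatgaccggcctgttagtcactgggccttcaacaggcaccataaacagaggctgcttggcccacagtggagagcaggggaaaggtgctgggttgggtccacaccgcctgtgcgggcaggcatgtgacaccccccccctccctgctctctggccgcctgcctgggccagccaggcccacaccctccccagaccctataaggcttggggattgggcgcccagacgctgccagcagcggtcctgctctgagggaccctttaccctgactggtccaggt
Adipoq, chr16:23146286-23146585, plus strand: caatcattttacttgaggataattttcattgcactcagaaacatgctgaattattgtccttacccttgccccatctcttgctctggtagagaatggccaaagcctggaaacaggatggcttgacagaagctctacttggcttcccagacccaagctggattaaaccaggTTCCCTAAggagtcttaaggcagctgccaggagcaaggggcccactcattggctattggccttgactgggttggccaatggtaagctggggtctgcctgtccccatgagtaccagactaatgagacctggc

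The Pparg window at the most upstream start consisted of G and C for 80.3% of its bases and held no C/EBP match. That of the most downstream start had a GC share of 40.3% and 2 matches, TTGCCAAA at bases 36 to 43 and, on the minus strand, the bases printed as TTTTGCAA at 235 to 242. The window between them, not printed, held none. Plin4 had none and Adipoq had TTCCCTAA at bases 170 to 177. A C/EBP match was found in 40.7% of 32851 windows of this length, a TEAD match in 14.7% and a PPAR-RXR match in 0.0396%. Pparg, which was higher, and Adipoq, which was at background, thus each had a window with a C/EBP match, and matches of this kind are common.

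Pparg, which encodes PPAR gamma, the nuclear receptor that drives fat cell formation, was 7.13-fold higher in the RNA labelled KO. Its 60-base probe (mm8, chr6:115455814-115455873, plus strand) was printed in 10 spots on each array, none of which was flagged. The log2 ratio was 2.92 with KO RNA in Cy5 and 2.75 with KO RNA in Cy3. Pparg was thus higher with either dye.

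The scanned signal, before dye normalisation, ran with KO RNA in Cy5 from 3252 over a median of 3576 to 4308 units in the RNA labelled KO, and from 168 over 183 to 207 units in the RNA labelled WT. With KO RNA in Cy3 it ran from 1248 over 1404 to 1571 units in the RNA labelled KO, and from 443 over 480 to 546 units in the RNA labelled WT. The local background of these spots averaged 28.4 to 37.5 units, so Pparg transcript was measured in both RNAs, and the spots of the RNAs did not overlap on either array. The ratios of single spots lay between 2.84 and 2.98 on the first array (SD 0.05) and between 2.68 and 2.84 on the second (SD 0.05). These are spots of 1 probe on 1 RNA pair, and their spread covers error within an array only. In these bulk RNAs, fewer cells of a type and less RNA per cell cannot be told apart, for Pparg or for any gene below.

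**Figure D1:**
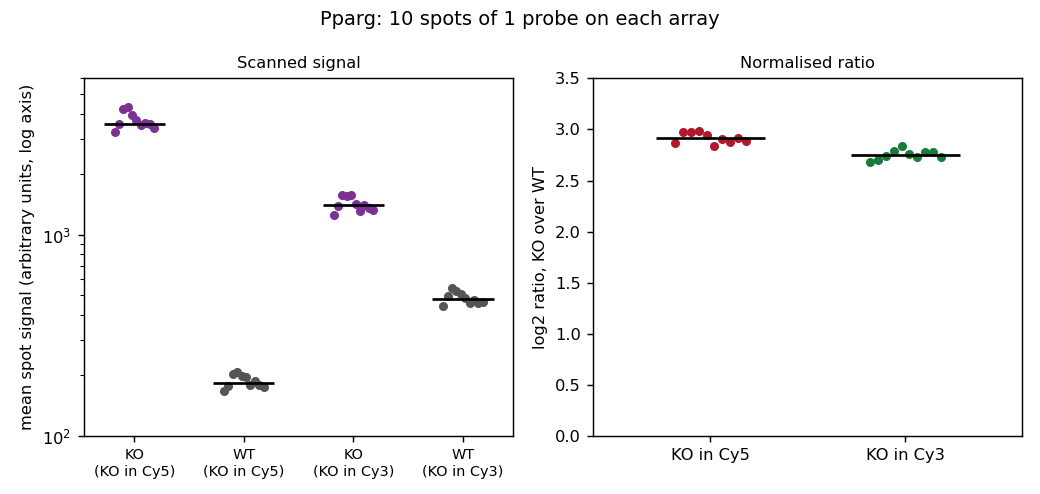
Pparg on both arrays: the left panel plots the scanned mean signal of each of the 10 spots (arbitrary units, log axis) in the RNAs labelled KO and WT, and the right panel the normalised log2 ratio of KO over WT of the same spots, with a line at each median. Spots of the RNA labelled KO lie above those of the RNA labelled WT on each array, and the median ratios are 2.91 with the KO RNA in Cy5 and 2.75 with it in Cy3.

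None of the C/EBP factors was called. Cebpa, the factor that partners PPAR gamma late in adipogenesis, had log2 ratios of -0.71 and -0.68 on its brighter probe (mm8, chr7:34830258-34830317), or 61.7% of the WT level. Its signals were 95.2 units in the RNA labelled KO and 95.9 in the RNA labelled WT with KO RNA in Cy5, and 52.0 and 182 with KO RNA in Cy3. Cebpa was thus measured low over a background of 29.0 to 41.0 units and was not called, although it lay on the lower side on both arrays. The ratio passed 2-fold lower on both arrays, and Cebpa was called lower, with the scanner software's own ratio (log2 ratio -1.63), with the deposited value table (-1.63) and with a background offset of 10 in place of 50 (-1.09). The second Cebpa probe (chr7:34829102-34829161) was not well above background in either RNA.

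Cebpb, an early factor, had ratios near 0. Its brighter probe (chr2:167381552-167381610) gave log2 ratios of 0.04 and -0.01, and its second probe (chr2:167381014-167381073) gave 0.11 and 0.27. On the brighter probe the signals were 13416 units in the RNA labelled KO and 4622 in the RNA labelled WT with the KO RNA in Cy5, and 4842 and 12449 with the dyes exchanged. The Cy5 label was brighter on both arrays, whichever RNA carried it.

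Cebpd, the other early factor, was measured by 1 probe (chr16:15801944-15802003), with log2 ratios of 0.56 and 0.55. Signals were 8969 and 2233 units in the RNAs labelled KO and WT with KO RNA in Cy5 and 3697 and 6406 units with KO RNA in Cy3. The mean ratio was 1.47-fold and stayed below the 2-fold threshold under every processing tried. Zfp423 was at background: the scanned signals of its 2 probes (chr8:90663728-90670334, a span of 6607 bases, and chr8:90552305-90552364, both minus strand) were 34.7 to 55.0 units over a local background of 30.0 to 43.0 units, and neither was well above it in any channel. Its log2 ratios, -0.26 and 0.00 on the first probe and 0.19 and -0.31 on the second, have no settled direction.

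Lpl, lipoprotein lipase, which frees fatty acids from circulating triglyceride at the cell surface and is itself a PPAR gamma target, was higher in the RNA labelled KO on both of its probes. The brighter probe (chr8:71835357-71835416, plus strand) gave log2 ratios of 2.98 and 2.57, or 6.86-fold. Its signals were 4191 units in the RNA labelled KO and 201 in the RNA labelled WT with the KO RNA in Cy5, and 1496 and 585 units with the dyes exchanged. The RNA labelled KO was the brighter one with either dye.

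The second Lpl probe (chr8:71830140-71830199), which lies upstream of the first, gave log2 ratios of 2.14 and 2.06, or 4.29-fold. Its signals were 1009 and 92.2 units with KO RNA in Cy5 and 422 and 203 with KO RNA in Cy3, in the RNAs labelled KO and WT. Both probes passed the call, and the lower of them did so with the smaller gap between arrays (SD 0.06 against 0.29).

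Fabp4, the fatty acid binding protein of fat cells and macrophages, passed the background flag in the RNA labelled KO and not in the RNA labelled WT. On both arrays its brightest probe (chr3:10186983-10187043, minus strand) stood well above background in the RNA labelled KO. In the RNA labelled WT it did so on 0 of 2. The fitted mean was 1.95-fold higher, with log2 ratios of 0.92 and 1.0. The computed bound equals this fitted mean, so it sets no separate lower limit. Signals were 157 units in the RNA labelled KO against 44.3 in the RNA labelled WT with KO RNA in Cy5, and 87.5 against 49.1 with KO RNA in Cy3, over local backgrounds of 34.5 and 36.0 units. Fabp4 transcript was thus low but present in the RNA labelled KO. The second probe (chr3:10187065-10187794, a span of 730 bases) was also well above background in the RNA labelled KO alone, with a fitted mean of 1.67-fold. The third (chr3:10190974-10191033) was at background in both RNAs.

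Fabp4 just missed the 2-fold threshold on the first array and passed it on the second. It was called higher with no background subtraction (log2 ratio 1.32), with an offset of 10 (1.76), with median centring (1.03), and with the scanner software's ratio and the deposited table, which both gave 4.05. These settings differ in what is subtracted from or added to the signals before the ratio is taken or in how the dyes are balanced, and they give no single size for the Fabp4 difference.

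Cd36, a fatty acid translocase and PPAR gamma target, was at background. Signals of its 2 probes (chr5:17294606-17294665 and chr5:17295116-17297548, a span of 2433 bases, both minus strand) were 36.4 to 51.1 units over backgrounds of 28.0 to 38.0 units. The log2 ratios of the brighter one were -0.11 and 0.27.

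The mature adipocyte products were not seen in either RNA. Adipoq, which encodes the hormone adiponectin (chr16:23072837-23072896), had signals of 55.9 and 47.0 units in the RNAs labelled KO and WT with KO RNA in Cy5 and 43.0 and 51.8 with KO RNA in Cy3. Plin1, which encodes the perilipin that coats the fat droplets of adipocytes (chr7:79594739-79594798, minus strand), had 45.1 and 43.7 units, and 42.8 and 49.5. Neither was well above background in any channel, and a level below what these probes can tell from background was not detectable.

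**Figure D2:**
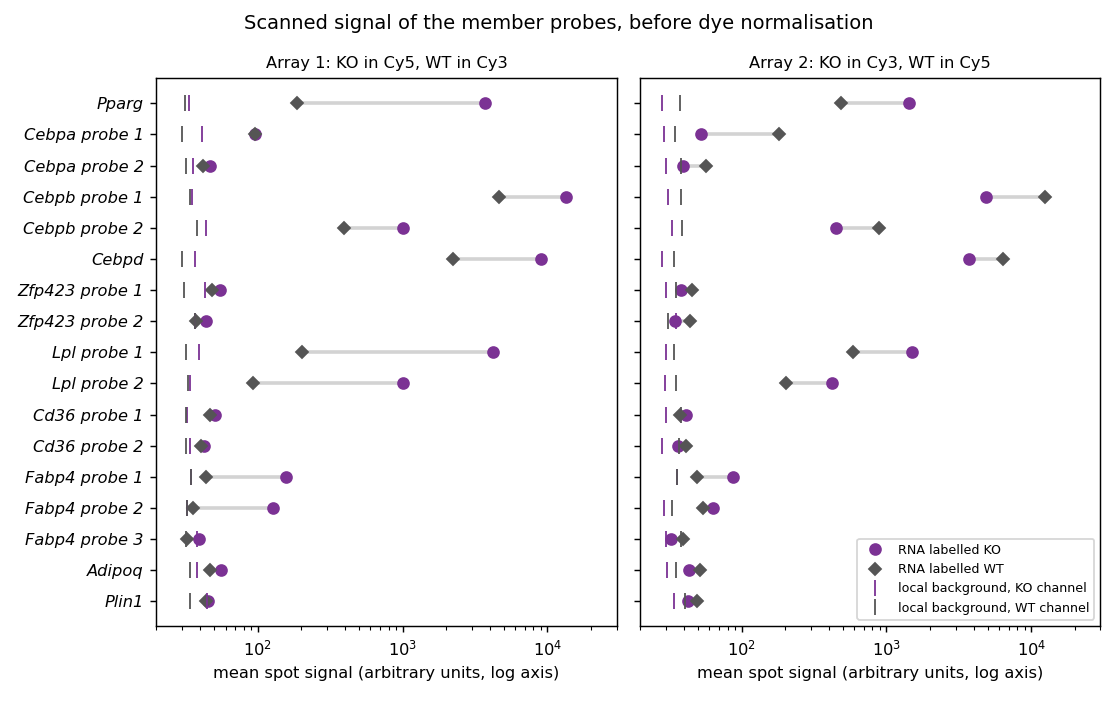
Scanned signal of every member probe (mean spot signal in arbitrary units, log axis) in the RNAs labelled KO (circles) and WT (diamonds) on each array, with upright ticks for the local background. Pparg and both Lpl probes have the RNA labelled KO on the right on both arrays, Cebpb and Cebpd change sides with the dye, and Zfp423, Cd36, Adipoq and Plin1 sit at 34.7 to 55.9 units beside their background ticks.

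**Figure D3:**
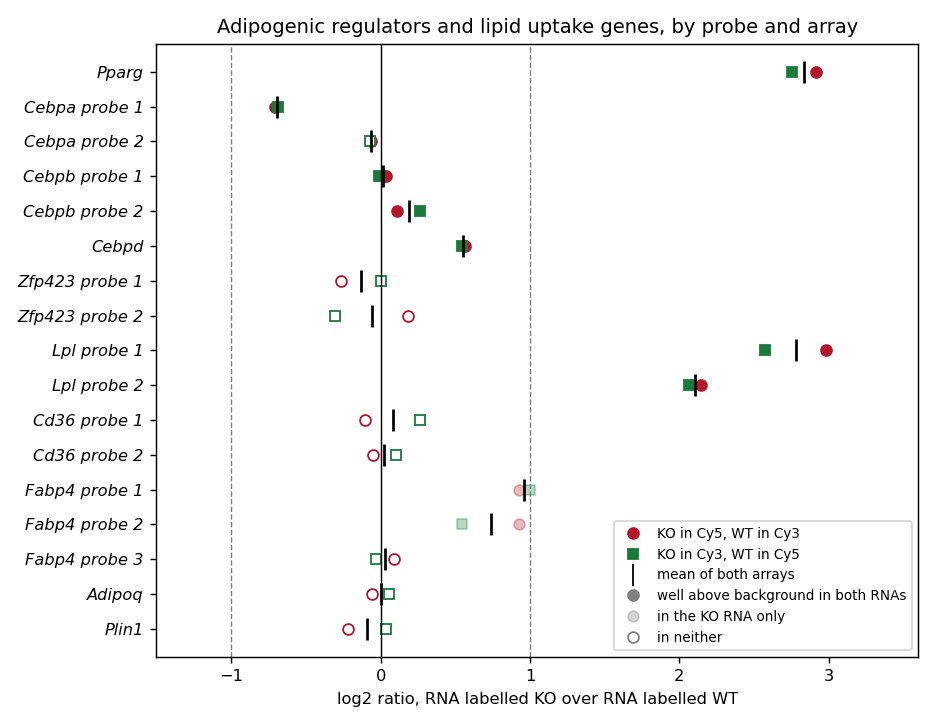
Log2 ratio of the RNA labelled KO over the RNA labelled WT for each member probe on the array with KO in Cy5 (circles) and KO in Cy3 (squares), with a bar at the mean. Fill shows whether the probe was well above background in both RNAs, in the KO RNA only or in neither; Pparg and both Lpl probes lie beyond 2-fold (dashed lines) on both arrays, the brightest Fabp4 probe lies at the line, and the second at 0.93 and 0.55.

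Around the members, 8 lists of other adipogenic and lipid handling genes were counted the same way, with 162 of 163 listed genes measured. Of these, 116 passed the background flag in 1 RNA or both, 8 were called higher and 9 lower. The median log2 ratio of the 162 was -0.02. Of all 27579 genes, 1.7% were called higher and 1.5% lower, and of the 15877 well above background, 2.95% and 2.61%. The lists were chosen with earlier results of these data known, so nothing is read from their counts, together or singly. Genes were called on both sides of the list medians. Their distance from medians near 0 follows from the 2-fold rule.

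Among 28 pro-adipogenic factors, 2 were called higher and 2 lower, with a median of -0.05. Bmp4, a growth factor that commits mesenchymal cells to the fat lineage, was 5.14-fold higher (log2 ratios 2.34 and 2.38), with signals of 2912 units in the RNA labelled KO and 225 in the RNA labelled WT with KO RNA in Cy5 and 1252 and 555 with KO RNA in Cy3. Klf5, which acts between C/EBP beta and PPAR gamma, was 2.94-fold higher on its brighter probe and 0.15 on the log2 scale on the other, which was near background. Egr2, an early zinc finger factor, was at 37.0% of the WT level, and Ebf3 at 43.3% on its brighter probe, with -0.11 on the log2 scale on the other, which was at background.

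Among 28 anti-adipogenic factors, 2 were called higher and 3 lower, with a median of -0.16. Dlk1, the preadipocyte surface protein also known as Pref-1, was 14.3-fold higher (log2 ratios 4.08 and 3.59), and its second probe gave a log2 ratio of 3.79. Its signals were 23981 units in the RNA labelled KO and 518 in the RNA labelled WT with KO RNA in Cy5 and 9918 and 2045 with KO RNA in Cy3. Gata3, which represses Pparg in preadipocytes, was 7.33-fold higher.

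Those lower on that list were the kinase-like scaffold genes Trib3, at 26.0% of the WT level, and Trib2, at 40.3%, and Wnt10b, a Wnt ligand that blocks adipogenesis. In the RNA labelled KO, Wnt10b did not pass the background flag on any array. Its fitted mean was 2.31-fold lower than in the RNA labelled WT. Called genes of both lists thus went both ways. Of the activators, Bmp4 and Klf5 were higher in the RNA labelled KO, and Egr2 and Ebf3 were lower. Of the inhibitors, Dlk1 and Gata3 were higher, and Trib3, Trib2 and Wnt10b were lower.

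Of 30 genes of fatty acid uptake and binding, 20 were well above background, 1 was called higher and 2 lower, with a median of 0.02. Angptl4, a secreted inhibitor of lipoprotein lipase and a PPAR target, was 2.74-fold higher, with signals of 314 and 40.5 units in the RNAs labelled KO and WT with KO RNA in Cy5 and 128 and 72.0 with KO RNA in Cy3. Acsl3, a long-chain acyl-CoA synthetase, was at 36.2% of the WT level. Cav2, a caveolin, was at 14.5% on its brighter probe, but its other probe, which lacked the background flag in the RNA labelled KO, gave a log2 ratio of -0.39. Scarb1, the receptor for high-density lipoprotein, had a mean log2 ratio of 0.97 and was not called, since its value with KO RNA in Cy3 was 0.87.

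Lipid droplet and lipolysis genes numbered 23, with 2 called higher, 1 lower and a median of 0.08. Both that were higher coat lipid droplets. Plin4, listed in the array file as S3-12, was 12.4-fold higher (log2 ratios 3.45 and 3.81), with signals of 2033 and 62.8 units in the RNAs labelled KO and WT with KO RNA in Cy5 and 861 and 114 with KO RNA in Cy3. Plin3, listed as M6prbp1, was 5.97-fold higher. Mgll, monoacylglycerol lipase, was at 46.9% of the WT level on its brightest probe, its second probe gave a log2 ratio of -1.05 and passed the same thresholds, and its remaining probe, at background, gave -0.07, while Lpin2, a phosphatidate phosphatase, gave -0.62 and was not called.

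Of 16 further PPAR gamma target genes, 15 were measured, 12 passed the background flag in 1 RNA or both, 1 was called higher and 0 lower, with a median of 0.13. Pdk4, which turns fuel use from glucose to fatty acids, was the one called, at 7.42-fold (log2 ratios 2.80 and 2.98). Lpcat3, a phospholipid acyltransferase, gave 0.59, and Scd1, stearoyl-CoA desaturase, gave -0.91 and -1.13, which missed the threshold on 1 array. With the scanner software's ratio, Agt, Hsd11b1 and Ucp2 were also called higher and Slc2a4 lower. Each of these 4 was well above background on both arrays in 1 RNA only.

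Adipokines and their receptors gave 0 called higher and 1 lower of 14, with 6 well above background. Cdh13, a receptor for adiponectin, was at 26.5% of the WT level on its brighter probe and at a log2 ratio of -0.28 on the other, while Adipor1, Adipor2 and Nampt gave 0.21, -0.16 and 0.10. None of 12 preadipocyte and mesenchymal genes was called, among them Ly6a, also called Sca-1 (0.94), Lum (0.16), Pdgfra (-0.41) and Thy1 (-0.45). Brown and beige fat genes were largely at background, with 2 of 12 above it, Dio2 (0.05) and Ppargc1b (0.15), and none called.

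**Figure D4:**
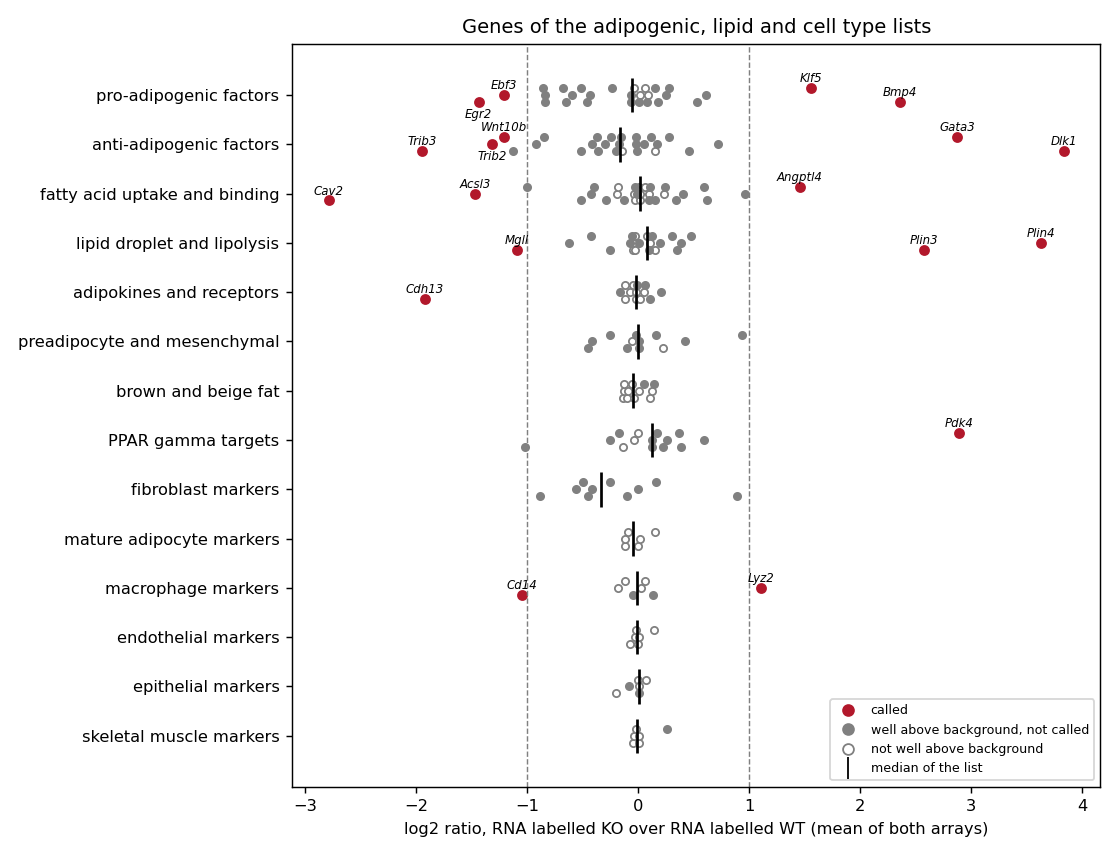
Each point is a gene of a list, placed by its log2 ratio of the RNA labelled KO over the RNA labelled WT (mean of both arrays, brightest probe); red points were called and are named, open points passed the background flag in neither RNA, and black bars are list medians. The medians lie between -0.33 and 0.13, and named genes lie on both sides of them, at a distance set by the 2-fold rule. Dashed lines mark 2-fold.

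Median centring in place of loess ended the calls on Acsl3, Cdh13, Ebf3, Egr2, Klf5, Mgll and Trib2, and averaging all probes of a gene ended those on Ebf3, Klf5 and Mgll. Asking for the background flag in both RNAs removed Wnt10b. Dlk1, Plin4, Plin3, Pdk4, Gata3, Bmp4 and Angptl4 were called higher, and Cav2 and Trib3 lower, under every processing tried. This leaves out the t-test and limma alternatives given at the end.

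Markers of other cells were read on the same arrays. Of 10 fibroblast markers all passed the background flag, 9 of them in both RNAs, and none was called, with Fn1 at a log2 ratio of 0.89, Col1a1 at -0.56 and Col3a1 at -0.49. The exception was Vim, with 1 usable probe, which passed the background flag in the RNA labelled KO on 1 array only. The summed signal of the list was 72229 to 213490 units in the RNA labelled KO and 77106 to 237720 in the RNA labelled WT, where the higher value of each range is that of Cy5.

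None of 6 mature adipocyte markers (Adipoq, Plin1, Cidec, Lep, Retn and Cfd) passed the background flag on both arrays, with summed signals of 238 to 288 units in the RNA labelled KO and 254 to 284 in the RNA labelled WT. The same held for all 6 endothelial markers, with 223 to 294 units and 230 to 299 units. For macrophages, which also express Lpl and Fabp4, 4 of 8 markers were well above background. The summed signals of all 8 were 1164 to 2512 units in the RNA labelled KO and 873 to 1743 in the RNA labelled WT. Lyz2 was the largest part of each sum, with 809 to 1945 units in the RNA labelled KO and 366 to 894 in the RNA labelled WT.

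Among those macrophage markers Lyz2 (Lyzs in the file) was called higher, 2.15-fold on its brighter probe and 0.13 on the log2 scale on the other, which was near background, and Cd14 was called lower, at 48.3% of the WT level. Cd68 gave 0.14 and Csf1r -0.05, and Ptprc, Adgre1, Itgam and Mrc1 were not well above background. The part of macrophages in the Lpl and Fabp4 values was not tested. Of the epithelial markers, Krt14 (-0.08) and Krt5 (0.01) were above background, and of the skeletal muscle markers Acta1 (0.26), with 4 and 5 others respectively at background.

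**Figure D5:**
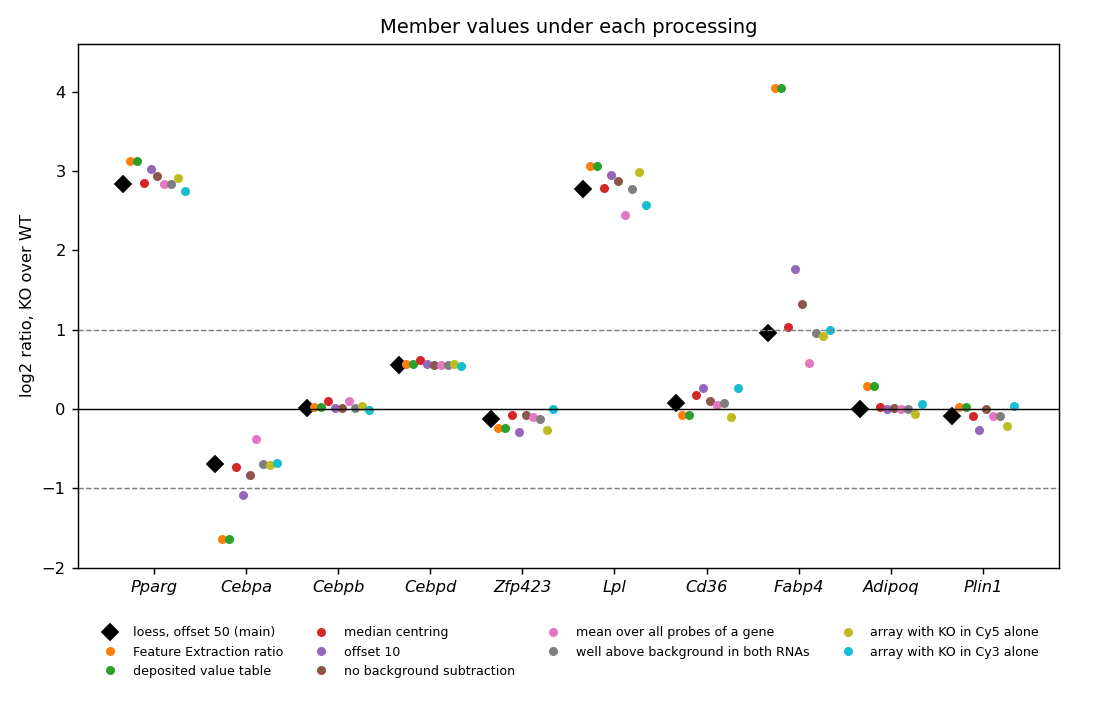
Log2 ratio of each member under each way of processing the arrays (points; black diamonds are the values given in the text; dashed lines mark 2-fold). Pparg stays between 2.75 and 3.13 and Lpl between 2.44 and 3.06, while Fabp4 runs from 0.58 to 4.05 and Cebpa from -1.63 to -0.38.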

How the data were processed

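RNA of LATS2-/- and LATS2+/+ MEFs was compared on 2 dye-swapped two-colour Agilent arrays, which share 1 slide and 1 scan. The authors read them with Agilent Feature Extraction 10.5.1.1 (per the submitters' processing notes) and deposited the mean signal and local background median of each spot as intensity in arbitrary units. The deposited files also hold the software's log10 ratio of Cy5 over Cy3. The authors' value table holds a deposited log2 ratio of KO over WT for each probe, which correlated with the scanner ratio at r = 0.9999 and 0.9996 across probes and whose medians were -0.018 and 0.0371. Its direction was settled against the scanner values, and its centring is unstated.

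Background was corrected by normexp in limma 3.58.1 (R 4.3.3; offset 50, which pulls ratios of dim probes towards 0) and normalised by loess within each array. Control spots (1639 of 45018) and spots flagged as outliers (390 and 378) were left out, and no spot was saturated. Spots of a probe were averaged, the sign of the swapped array was reversed, and ratios are means over the arrays. For repeated spots, a share of at least 0.5 had to be well above background. The brightest usable probe stood for a gene. A threshold of 2-fold was taken from the methods given for MEF arrays, which may be others than these. A probe not well above background in 1 RNA on both arrays has a bound there: the brighter mean against, per array, the higher of the lowest signal well above background and its own, from channel values after loess and Aquantile. The bounds equal the fitted ratios where the dim signal was the higher of those. This was so for Fabp4 and Wnt10b, which are given as fitted ratios without a separate lower limit.

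The members and the gene lists were chosen with earlier results of these data known. Named are all members and, from each list, the called genes and the 2 highest and 2 lowest ratios among genes well above background in both RNAs; Agt, Hsd11b1, Ucp2 and Slc2a4, and list members named only as at background, were added after their values were seen. An item that meets the rule is not reported here. Probe coordinates are those of the files (mm8). Accessions of 24496 probes matched RefSeq genes of GRCm38.p6, which gave another symbol for 4840. Calling was tested on simulated data: 200 of 200 altered probes among 40875 were recovered, with 0 false calls. With 1 replicate per genotype, this gives no error rate for the calls above. Further steps used scipy 1.17.1, numpy 2.4.6, pandas 2.3.3, statsmodels 0.14.6 and matplotlib 3.10.9 in Python 3.11.15. Intensity gives no counts, so the number of arrays limits the precision.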

Additional observations from a re-analysis of the deposited data

How the results depend on the processing

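Of 159 values recomputed under the alternatives, 117 stayed within the SD between arrays (counts: within 1.5 times), 42 moved further and 0 called values changed sign. Pparg and Lpl were called higher under every alternative except the t-test and limma, for which calls of single genes were not listed. The adjusted t-test called 0 probes. The 15 changes of sign among single members fell on Cebpb, Zfp423, Cd36, Adipoq and Plin1, none of which was called. Members called higher numbered 2, or 3 where Fabp4 was added, and members called lower 0, but 1 (Cebpa) with the Feature Extraction ratio, the deposited value table or an offset of 10. Of the other adipogenic and lipid genes, 14 in place of 8 were called higher with the Feature Extraction ratio and with the value table, and 3 in place of 9 were called lower with median centring. Over all probes, 599 were called higher and 503 lower (54.4% higher), against 1280 and 1220 with the Feature Extraction ratio, 1284 and 1224 with the value table, and 321 and 169 with median centring (65.5% higher).

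The methods' t-test on the 2 arrays at the methods' threshold gave 524 higher and 443 lower unadjusted, but 0 and 0 after Benjamini-Hochberg adjustment, whereas limma with the same adjustment gave 662 and 598. These tests compare the hybridised RNAs, not the genotypes. With 1 array left out, the members called higher were 2 to 3, the members' median -0.01 to 0.16, the other genes called higher 8 to 10 and lower 11, and all probes called higher 670 to 715 and lower 584 to 666. Fabp4 was called with KO RNA in Cy3 alone, on the second array. Averaging all probes of a gene does not apply to the counts of probes. No paired analysis was possible under the assumption of only 1 replicate per genotype, which the labels do not settle. The causes were not tested. Signals near background limit Zfp423, Cd36, Fabp4, Adipoq, Plin1 and Cebpa.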
